A study of Mus musculus with 10 samples.

Results

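The 9 genes described here encode digestive enzymes that acinar cells of the exocrine pancreas make and secrete: Ctrb1, Pnliprp1, Prss2, Cpa1, Cpb1, Cel, Pnlip, Cela2a and Cela3b. They were taken by name, 9 of the 56748 gene identifiers in the count tables, and their transcripts were read in beta cells sorted by flow cytometry. Beta cells make insulin, and these enzymes are used as markers of acinar contamination in islet material. The islets came from NOD mice, a strain prone to autoimmune diabetes, all of them males 6 to 8 weeks old. The LPS group (5 libraries, numbered 6 to 10) came from islets cultured for 48 hours with 50 ng/ml of lipopolysaccharide, a bacterial cell wall component sensed by Toll-like receptor 4. The untreated group (5 libraries, numbered 1 to 5) received none. In both groups trypsin was used to disperse the islets before the sort. The libraries are described as independent samples, with neither the animals behind each nor the sorting gate named, and the culture of the untreated islets is not described.

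Acinar cells store most of these enzymes as inactive precursors in zymogen granules and release them into the duct on stimulation. In the gut, trypsin cleaves and so activates the other protease precursors, while the lipases act on dietary fat with bile salts and a colipase. In the mouse acinar cell, transcription of these genes depends on PTF1, a complex of Ptf1a with an E-box partner and Rbpjl that binds an E-box next to a second half-site. Acinar cells lie around the islets, and their transcripts are among the most abundant in whole pancreas.

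Total gene counts ran from 18465188 to 27379892 per library. The label of beta cells fitted the insulin genes: Ins2 averaged 61510 ± 8361 CPM (counts per 1e+06 gene counts, with TMM scaling between libraries) in LPS and 70294 ± 6159 CPM in untreated libraries, and Ins1 33918 ± 4285 CPM in LPS and 36440 ± 2462 CPM in untreated libraries (SD, n = 5 each). Hormones of other islet cells were present as well. Gcg, of alpha cells, averaged 6551 CPM in LPS and 8921 CPM in untreated libraries, Sst, of delta cells, 6629 CPM in LPS and 7060 CPM in untreated libraries, and Ppy, of PP cells, 782 CPM in LPS and 1556 CPM in untreated libraries. In bulk samples, fewer cells of a type and less RNA per cell cannot be told apart.

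All 9 enzyme genes were detected in every library, at low levels and with a large spread inside each group. Their summed level was 610.1, 214, 418, 696 and 131 CPM in LPS libraries 6 to 10, against 466, 381, 519, 472 and 218 CPM in untreated libraries 1 to 5. The means were 414 ± 244 CPM in LPS and 411 ± 119 CPM in untreated libraries (SD, n = 5 each). The groups overlapped: the highest and the lowest sum both belonged to LPS libraries, and untreated 5 and LPS 7 stood close together. As a share of all gene counts the 9 genes made up 0.0131% to 0.0702% in LPS and 0.0217% to 0.0524% in untreated libraries. LPS 7, LPS 10 and untreated 5 stood apart as the 3 libraries with the lowest sums, with a gap to the other 7. Without them the mean sum was 115 CPM higher in LPS than in untreated libraries, against 2.67 CPM with all 10.

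With edgeR's quasi-likelihood test and a threshold of 0.05 on the adjusted p, 0 of the 9 genes were called between LPS and untreated libraries, beside 3.77% of the 15942 genes tested (2.84% higher in LPS and 0.928% lower in LPS). All 9 passed the filter on low counts, each with at least 53 counts in every library. None had an unadjusted p under 0.05, against 15.3% of all genes, and none had groups that did not overlap, against 5.71%. Log2 fold changes (LPS over untreated) ran from -0.48 to 0.14 with a median of -0.18, beside a median of -0.01 over all genes tested. Standard errors of 0.33 to 0.52 left wide intervals, and changes of the size the 95% intervals span were not detectable against the spread between these libraries. DESeq2 and limma-voom called none of the 9 either. Without LPS 7, LPS 10 and untreated 5, all 9 log2 fold changes were above 0, from 0.03 for Cpb1 to 0.46 for Ctrb1, and none was called (edgeR adjusted p = 0.258 to 0.980).

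**Figure D1:**
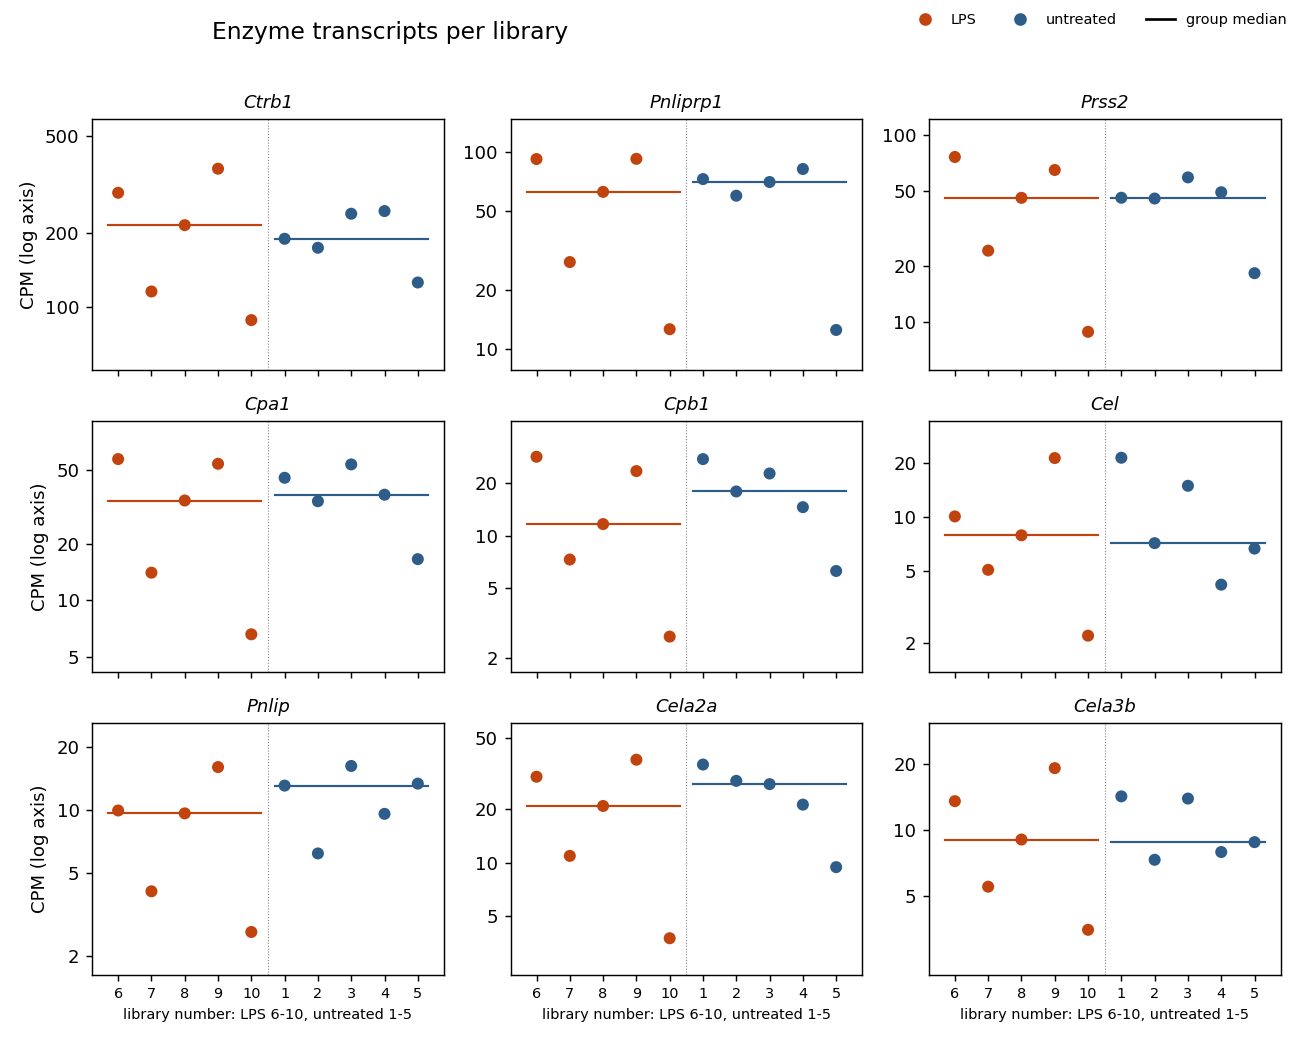
Level of each enzyme gene in CPM (log axis, its own range in each panel) in the 5 LPS libraries (6 to 10, left) and the 5 untreated libraries (1 to 5, right), with lines at the group medians. LPS 10 is the lowest library for 8 of the 9 genes, and the groups overlap in every panel.

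The serine protease genes come first. Prss2 (ENSMUSG00000057163, chromosome 6) encodes an anionic trypsinogen, the precursor of trypsin. It had 76.3, 24.1, 46.2, 65.0 and 8.90 CPM in LPS libraries 6 to 10, against 46.2, 45.8, 59.4, 49.5 and 18.3 CPM in untreated libraries 1 to 5. The LPS libraries thus spread 8.57-fold around an untreated group that held together except for untreated 5. Its log2 fold change was 0.00 ± 0.44 (SE; 95% interval -0.95 to 0.96; edgeR adjusted p = 0.999).

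Ctrb1 (ENSMUSG00000031957, chromosome 8), the gene of chymotrypsinogen B, was the most abundant of the 9 genes in every library. Its levels were 292, 115, 215, 366 and 88.2 CPM in LPS and 189, 174, 239.7, 246 and 126 CPM in untreated libraries. The order of the libraries was that of Prss2 in outline, but Ctrb1 varied least, 4.15-fold between LPS 9 and LPS 10. The difference between groups was 0.14 ± 0.33 on the log2 scale (95% interval -0.56 to 0.85; edgeR adjusted p = 0.896).

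Cela2a and Cela3b (both on chromosome 4) encode members of the elastase family of serine proteases. Cela2a (ENSMUSG00000058579) had 30.3, 10.9, 20.8, 37.8 and 3.77 CPM in LPS, against 35.5, 28.8, 27.6, 21.1 and 9.44 CPM in untreated libraries. Here the 3 low libraries were again the lowest. Cela3b (ENSMUSG00000023433) had 13.6, 5.53, 9.07, 19.2 and 3.52 CPM in LPS, against 14.2, 7.33, 13.9, 7.95 and 8.82 CPM in untreated libraries. Untreated 5 was not low for Cela3b: it was the median of its group. The log2 fold changes were -0.25 ± 0.47 for Cela2a and -0.06 ± 0.37 for Cela3b (SE; edgeR adjusted p = 0.866 and 0.966).

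Both carboxypeptidase genes followed Prss2 closely. Cpa1 (ENSMUSG00000054446, chromosome 6) encodes the precursor of carboxypeptidase A1, which removes aromatic and aliphatic residues from the C-terminus of peptides. It had 57.3, 14.1, 34.4, 54.1 and 6.58 CPM in LPS, against 45.5, 34.1, 53.7, 36.9 and 16.7 CPM in untreated libraries. Cpb1 (ENSMUSG00000011463, chromosome 3), whose product removes basic residues, had 28.2, 7.30, 11.6, 23.3 and 2.65 CPM in LPS, against 27.3, 17.9, 22.6, 14.5 and 6.28 CPM in untreated libraries. LPS 7, LPS 10 and untreated 5 were the 3 lowest libraries for each of them. Between its highest and lowest library Cpb1 differed 10.6-fold, the widest range among the 9 genes. Neither differed between groups beyond that spread (-0.18 ± 0.47 and -0.29 ± 0.50 on the log2 scale, SE; edgeR adjusted p = 0.919 and 0.851).

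The lipid-digesting enzymes did not share a single pattern. Pnliprp1 (ENSMUSG00000042179, chromosome 19), a close relative of pancreatic lipase with little lipase activity of its own, was the second most abundant of the 9 in CPM in most libraries. It had 92.4, 27.6, 62.9, 92.6 and 12.6 CPM in LPS, against 73.1, 60.1, 70.6, 82.2 and 12.5 CPM in untreated libraries. Untreated 5 and LPS 10 were its lowest values and stood well below all others. Pnlip (ENSMUSG00000046008), which encodes pancreatic lipase and also lies on chromosome 19, had 9.95, 4.08, 9.64, 16.1 and 2.61 CPM in LPS, against 13.1, 6.20, 16.2, 9.59 and 13.4 CPM in untreated libraries. For this gene untreated 5 was the second highest untreated library. Cel (ENSMUSG00000026818, chromosome 2), the gene of bile salt-activated lipase, had 10.1, 5.09, 7.93, 21.3 and 2.19 CPM in LPS, against 21.4, 7.17, 14.9, 4.21 and 6.69 CPM in untreated libraries. Its lowest untreated value was in untreated 4, not in untreated 5. The log2 fold changes were -0.06 ± 0.51 for Pnliprp1, -0.48 ± 0.39 for Pnlip and -0.24 ± 0.52 for Cel (SE; edgeR adjusted p = 0.976, 0.637 and 0.890).

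Promoters were searched for short core letters of the PTF1 site named above, and those of 4 members are shown: the 3 that hold both motifs and, for contrast, that of Pnliprp1, which holds neither. Of the 9 member promoters, taken as the 250 bases before the RefSeq start in GRCm38.p6, 5 hold CACCTG on either strand, 5 hold TTTCCC on either strand, and 3 hold both. Over all 32851 promoters of this length the shares are 17.2%, 21.9% and 3.61%. No CACCTG match overlaps a TTTCCC match in these windows. Promoters with both are those of Prss2 (chr6:41521526-41521775, plus strand), Cela2a (chr4:141826006-141826255, minus strand) and Cel (chr2:28563404-28563653, minus strand). Pnliprp1 (chr19:58728637-58728886, plus strand) has neither motif in this window. Capitals mark matches of both motifs and of their reverse complements, and each sequence runs 5′ to 3′ and ends at the base before the start.
Prss2: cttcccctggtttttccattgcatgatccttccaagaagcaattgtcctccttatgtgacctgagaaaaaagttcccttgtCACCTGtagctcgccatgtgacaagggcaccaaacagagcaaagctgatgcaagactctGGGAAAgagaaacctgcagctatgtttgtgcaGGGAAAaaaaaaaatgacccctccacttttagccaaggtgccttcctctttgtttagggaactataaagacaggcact
Cela2a: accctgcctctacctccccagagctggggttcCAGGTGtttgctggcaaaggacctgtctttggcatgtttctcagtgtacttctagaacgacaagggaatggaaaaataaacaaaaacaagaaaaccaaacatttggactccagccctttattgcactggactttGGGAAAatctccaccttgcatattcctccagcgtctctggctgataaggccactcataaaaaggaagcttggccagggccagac
Cel: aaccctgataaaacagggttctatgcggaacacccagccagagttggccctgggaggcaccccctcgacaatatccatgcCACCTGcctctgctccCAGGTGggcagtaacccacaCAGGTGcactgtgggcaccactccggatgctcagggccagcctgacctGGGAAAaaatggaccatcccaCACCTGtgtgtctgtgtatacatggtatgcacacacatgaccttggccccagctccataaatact
Pnliprp1: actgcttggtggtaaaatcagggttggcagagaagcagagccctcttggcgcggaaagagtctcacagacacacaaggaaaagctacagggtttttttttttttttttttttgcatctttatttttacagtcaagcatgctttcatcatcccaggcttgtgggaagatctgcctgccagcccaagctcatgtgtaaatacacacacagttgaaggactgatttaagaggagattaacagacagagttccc
A match describes letters in a window and not a bound site. In Prss2 the CACCTG lies 169 to 164 bases before the start, and the nearer match of TTTCCC lies 110 to 105 bases before it. In Cela2a the reverse complement of CACCTG lies 218 to 213 bases before the start, and the TTTCCC match 84 to 79. Cel holds 4 such E-boxes, and its TTTCCC match, 86 to 81 bases before the start, is nearest to the E-box at 65 to 60. Holding both motifs in the window thus does not mean that they lie side by side. Of the words searched, Ctrb1 and Cpa1 have TTTCCC alone, Cpb1 and Cela3b CACCTG alone, and Pnlip neither. Forms of the E-box other than CACCTG were not searched. The Ctrb1 window, for example, holds CAGCTG shortly before its TTTCCC.

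Per length of exon (CPM per kilobase of the exon union in GENCODE M21), the levels fell into an order that was nearly the same in both groups. Ctrb1 stood at 245 ± 133 CPM per kilobase in LPS and 222 ± 56.6 in untreated libraries (SD, n = 5 each). Prss2 followed at 54.1 ± 34.3 in LPS and 53.8 ± 18.8 in untreated libraries, Pnliprp1 at 25.9 ± 16.5 in LPS and 26.9 ± 12.4 in untreated libraries. Cpa1 came next at 19.0 ± 13.1 in LPS and 21.4 ± 7.94 in untreated libraries, all in CPM per kilobase. The steps from Ctrb1 to Prss2 and from Prss2 to Pnliprp1 held in all 10 libraries, and that from Pnliprp1 to Cpa1 in 9, with untreated 5 as the exception. Cela2a (12.0 in LPS and 14.2 in untreated) and Cela3b (6.11 in LPS and 6.28 in untreated) followed, each step again in all 10 libraries. Cpb1, Cel and Pnlip lay between 3.86 and 5.40 CPM per kilobase in both groups and could not be ordered: Cpb1 was above Cel in 3 of 10 libraries and Cel above Pnlip in 5 of 10.

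The mixture of the 9 transcripts differed between libraries. Ctrb1 made up 54.6 ± 7.43% of the summed CPM of the 9 genes in LPS and 48.5 ± 6.57% in untreated libraries (SD, n = 5 each), with its highest shares in LPS 10 (67.3%) and untreated 5 (57.7%). Pnliprp1 made up 9.61% in LPS 10 and 5.73% in untreated 5, but 12.9% to 17.4% in the other 8 libraries. The ratio of Pnlip to Pnliprp1 in CPM was 1.07 in untreated 5 and lay between 0.103 and 0.230 in the other 9 libraries. Libraries with higher sums differed too: Cel made up 4.59% of the sum in untreated 1 and 0.893% in untreated 4, and the ratio of Cela3b to Cel was 0.666 and 1.89 in these libraries. By contrast the ratio of Cpa1 to Prss2 stayed between 0.584 and 0.984, and that of Cpb1 to Cela2a between 0.559 and 0.929. The 3 libraries with low sums therefore did not share 1 mixture: untreated 5 kept Pnlip and Cela3b at the level of the other untreated libraries, while in LPS 10 all 9 genes were low. These ratios were chosen after the values were seen, and the counts behind the smallest of them were at least 53 per gene and library.

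**Figure D2:**
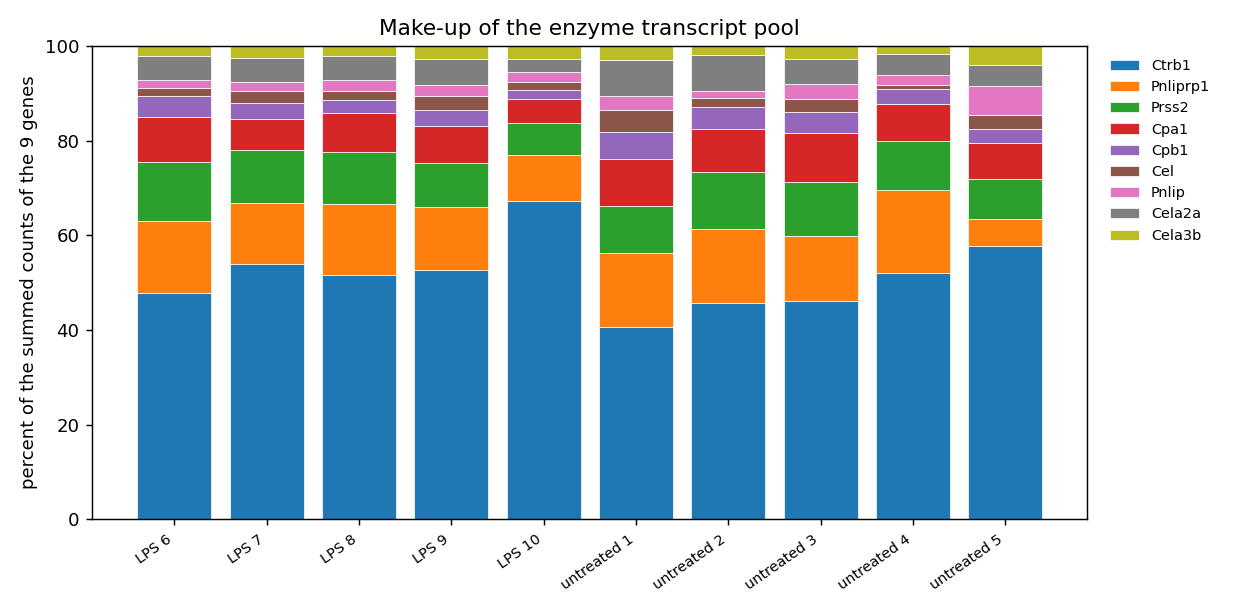
Share of each gene in the summed CPM of the 9 enzyme genes, in percent, by library, LPS libraries on the left. Ctrb1 holds the largest share everywhere, up to 67.3% in LPS 10, and untreated 5 has a small Pnliprp1 and a large Pnlip share.

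Across the 10 libraries the 9 genes rose and fell together. Pearson's r of log2 CPM ran from 0.55 to 0.98 over the 36 pairs, with a median of 0.87, and Spearman's rho from 0.43 to 0.98 with a median of 0.79. With Benjamini-Hochberg adjustment over the 36 pairs, 35 had an adjusted permutation p under 0.05 for r and 28 for rho. The exception for r was Pnliprp1 with Pnlip (r = 0.55, adjusted p = 0.0826; rho = 0.43, adjusted p = 0.216, permutation tests over 10 libraries). Deviations from the group means gave a median of 0.88, so the relation held within the groups. The members share libraries, depth and scaling. How many pairs of other genes would pass was not determined, so the counts of 35 and 28 have no background beside them.

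Over the 10 libraries, Prss2, Cpa1, Cpb1 and Cela2a had r between 0.96 and 0.98 in their 6 pairs, and over the 7 libraries with the higher sums between 0.40 and 0.87. Cpb1 with Cela2a had r = 0.98 (rho = 0.94; permutation p adjusted over the 36 pairs 0.00042 and 0.00192), and Prss2 with Cpa1 had r = 0.98 (rho = 0.98; adjusted p = 0.00042 and 0.00072). The 3 pairs of Cel, Pnlip and Cela3b had r between 0.82 and 0.94 over 10 libraries and between 0.74 and 0.89 over the 7, so the order of the 2 sets turned with the libraries kept. They were not a set apart: Cel had r = 0.84 with Cela2a and Cela3b had r = 0.90 with Cpa1. Their r with Pnliprp1 was 0.55 to 0.72. The set of Prss2, Cpa1, Cpb1 and Cela2a and that of Cel, Pnlip and Cela3b were picked after the values were seen. The difference between these sets was not tested. With Prss2, r was 0.95 for Pnliprp1 and 0.70 for Pnlip, whose promoter windows hold neither motif. It was 0.96 for Cela2a and 0.73 for Cel, which hold both. A relation between motifs and covariation was not tested.

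Most of these correlations were smaller without the low libraries. Without the 2 libraries farthest from the median of the first gene, r stayed above 0 in all 36 pairs with a median of 0.79, but was 0.02 for Pnlip with Cela2a and 0.19 for Cpa1 with Pnlip, without LPS 10 and LPS 7 in each case. With untreated 5 left out as well, these pairs had r = 0.43 and 0.73, so the low values depended on untreated 5 being kept. Over the 7 libraries with the higher sums, the median r was 0.67 and the range 0.24 to 0.89. Prss2 with Cpa1 then had r = 0.87, Cel with Cela3b 0.89 and Ctrb1 with Pnliprp1 0.86, while Pnliprp1 with Cel had 0.24 and Ctrb1 with Cel 0.28.

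**Figure D3:**
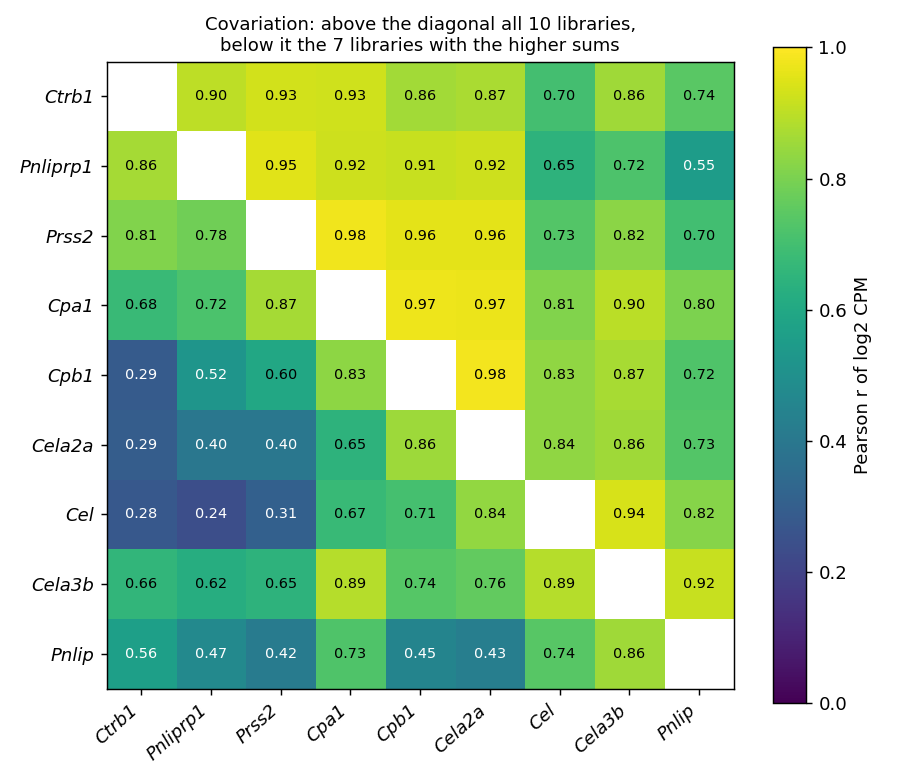
Pearson's r of log2 CPM between each pair of enzyme genes, above the diagonal over all 10 libraries and below it over the 7 libraries with the higher sums. Values above the diagonal run from 0.55 to 0.98 and those below from 0.24 to 0.89.

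Few transcripts in these libraries varied as much inside a group. The within-group SD of log2 CPM was 0.68 for Ctrb1, 1.19 for Pnliprp1 and between these for the others, with a median of 1.05, against 0.19 for the median gene. Pnliprp1 lay at percentile 99.6 of all genes tested and Ctrb1, the least variable member, at 94.7. Such spread was not particular to the enzyme genes. The median within-group SD was 1.29 for Reg genes, 1.39 for endothelial and 1.48 for mesenchymal markers. It was 0.40 for alpha cell and 0.14 for beta cell markers.

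Other genes of the acinar cell gave the same picture of large spread without a call. Of 43 further acinar genes, 32 passed the filter, none was called (background 3.77%), and 2 had an unadjusted p under 0.05 (background 15.3%). DESeq2 and limma-voom likewise called none. Their log2 fold changes were above 0 for 17 and below 0 for 15, with a median of 0.04 beside -0.01 over all genes. A fit without LPS 9 called 1 of them, the elastase gene Cela1, lower in LPS (log2 fold change -0.72, edgeR adjusted p = 0.00226; with all libraries -0.47, adjusted p = 0.221).

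Among other secreted enzymes, 13 of 21 passed, and Try5 and Cela1 were among the most abundant. Try5, a trypsinogen gene, averaged 36.7 ± 23.6 CPM in LPS and 43.9 ± 18.4 CPM in untreated libraries and had r = 0.91 over 10 and 0.14 over 7 libraries. Cela1 averaged 24.4 ± 9.01 CPM in LPS and 33.7 ± 3.57 CPM in untreated libraries and had r = 0.59 over 10 and 0.39 over 7 libraries.

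Of 10 genes of zymogen granules and accessory products, 8 passed. Gp2, a granule membrane glycoprotein gene, averaged 8.39 ± 4.21 CPM in LPS and 6.76 ± 1.47 CPM in untreated libraries. The kallikrein gene Klk1 averaged 7.14 ± 4.60 CPM in LPS and 6.70 ± 1.46 CPM in untreated libraries, and Sycn, which encodes the granule protein syncollin, 5.43 ± 3.78 CPM in LPS and 6.62 ± 2.27 CPM in untreated libraries (SD, n = 5 each). Their r with the mean of the 9 enzyme genes was 0.91, 0.87 and 0.80 over 10 libraries and 0.67, 0.79 and 0.71 over the 7 with the higher sums.

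The Reg genes encode small secreted lectin-like proteins made by acinar cells and raised in pancreatic injury, and all 6 passed. Reg1 averaged 29.7 ± 20.4 CPM in LPS and 26.8 ± 11.6 CPM in untreated libraries, Reg3b 18.6 ± 12.0 CPM in LPS and 16.3 ± 7.59 CPM in untreated libraries, and Reg2 7.28 ± 5.52 CPM in LPS and 5.22 ± 5.29 CPM in untreated libraries (SD, n = 5 each). Their r with the mean of the 9 genes was 0.95, 0.92 and 0.82 over 10 libraries and 0.69, 0.38 and 0.54 over the 7. Reg3g, named here after its value was seen, had 2.39 ± 1.26 CPM in LPS and 1.21 ± 0.736 CPM in untreated libraries (log2 fold change 0.97 ± 0.44 SE, unadjusted p = 0.0442, edgeR adjusted p = 0.308).

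Of 6 genes of acinar regulators, 5 passed. Bhlha15, the gene of the secretory cell transcription factor MIST1, was the most abundant at 63.3 ± 4.00 CPM in LPS and 62.0 ± 4.15 CPM in untreated libraries (SD, n = 5 each). It did not follow the enzymes (r = 0.16) and had a within-group SD of 0.10 on the log2 scale. Nr5a2, a nuclear receptor gene, averaged 2.12 ± 0.422 CPM in LPS and 2.39 ± 0.933 CPM in untreated libraries, with r = 0.45. Cckar, the cholecystokinin receptor gene, averaged 1.55 ± 1.25 CPM in LPS and 1.46 ± 0.811 CPM in untreated libraries and had r = 0.92 over 10 and 0.80 over 7 libraries. Ptf1a, named for its role above and outside the naming rule, had 39 counts summed over the LPS and 70 over the untreated libraries and did not pass the filter.

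**Figure D4:**
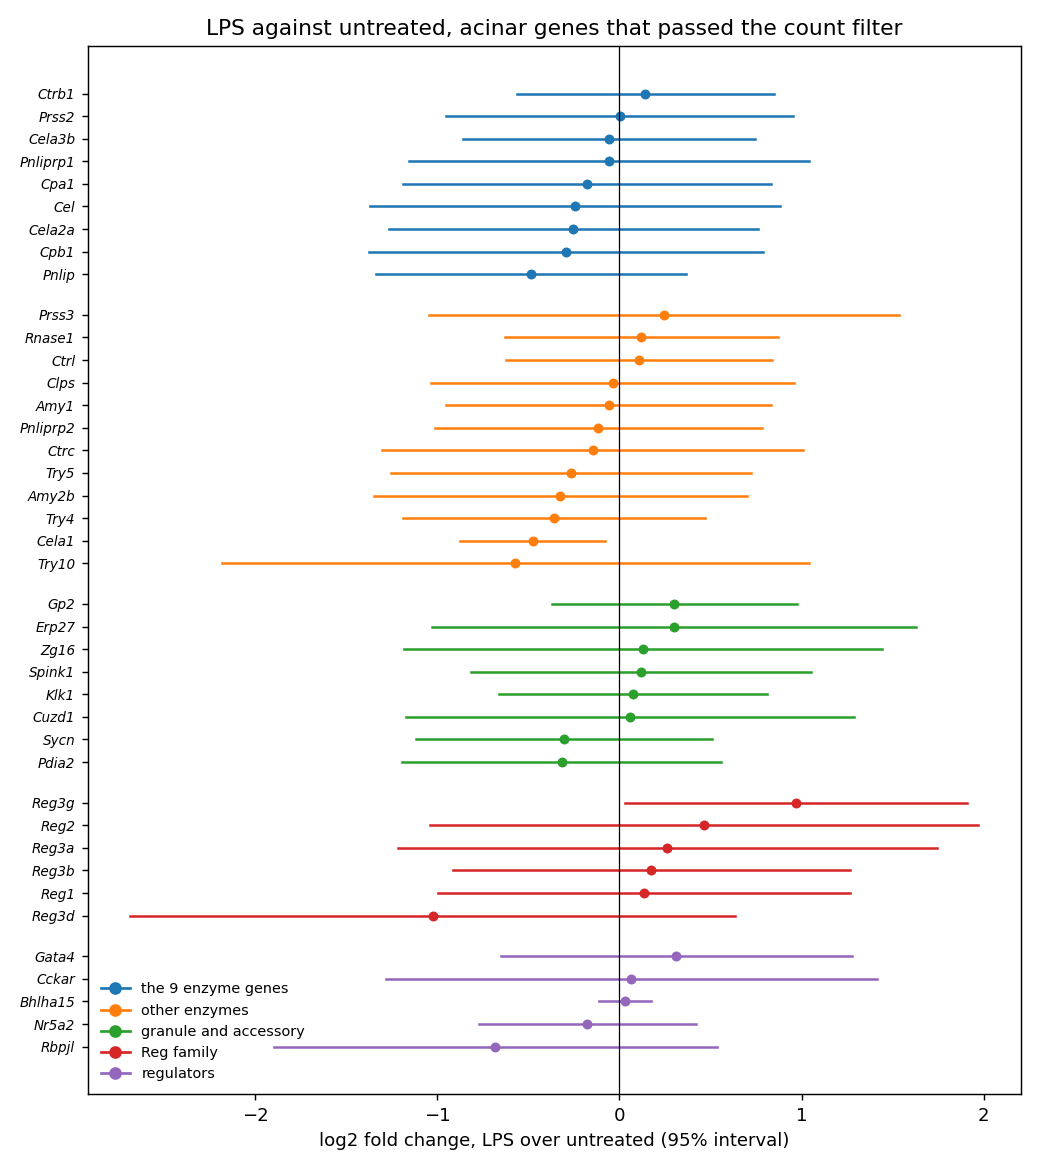
Log2 fold change of LPS over untreated with its 95% interval for the 9 enzyme genes and other acinar genes that passed the filter, by group. The 9 enzyme genes sit between -0.48 and 0.14, and all of their intervals include 0.

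The genes most like the mean log2 CPM of the 9 enzyme genes over the 10 libraries included many acinar ones, though listed acinar genes were a minority of the 50 most alike. The 10 highest were 2210010C04Rik (r = 0.98), the colipase gene Clps (0.97), the amylase gene Amy2b (0.96), Reg1 (0.95), Pnliprp2 (0.94), Pank1 (0.94), Cckar (0.92), Dcps (0.92), Reg3b (0.92) and Lbr (0.92). Of 15933 genes ranked, 70 had r of at least 0.8, a share of 0.439%, and 16 of these belonged to the 32 other acinar genes. Pank1, Dcps and Lbr differ from the acinar genes in size of variation: their within-group SDs were 0.18, 0.09 and 0.09 on the log2 scale, against 0.85 to 1.45 for Clps, Amy2b, Pnliprp2, Reg1 and Cckar. Among the 50 most alike genes, 15 were other acinar genes, but only 1 over the 7 libraries with higher sums. All of these values are descriptions over 10 libraries that share their depth and scaling.

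**Figure D5:**
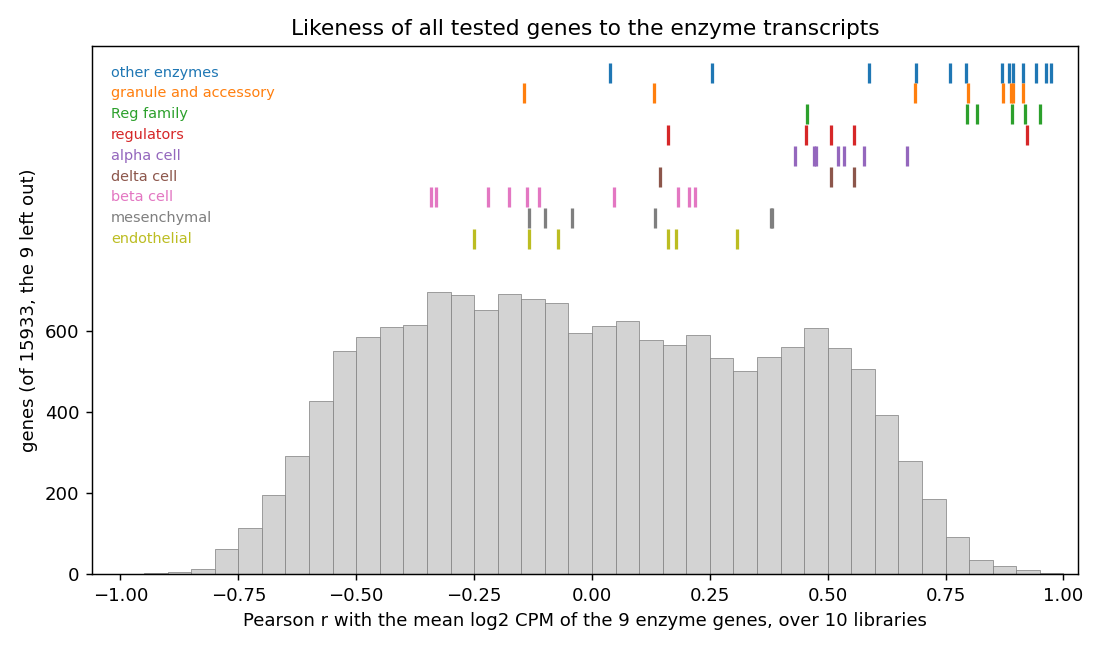
Distribution of Pearson's r with the mean log2 CPM of the 9 enzyme genes over 15933 other genes tested (bars), with the members of marker lists as ticks above. Of the genes tested, 7 of 13 other enzymes, 4 of 8 granule and accessory genes and 4 of 6 Reg genes have r of at least 0.8. Others of these lists lie lower, down to 0.04 for Amy1 and -0.14 for Pdia2. Alpha cell genes lie between 0.43 and 0.67, and beta cell genes between -0.34 and 0.22.

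Markers of other cell types moved with the enzymes to different degrees. The summed alpha cell list ran from 4188 to 9021 CPM in LPS and from 5037 to 14370.1 CPM in untreated libraries, and the log2 of this sum had r = 0.67 (rho = 0.43) with the mean log2 CPM of the 9 genes. For delta cell genes, r was 0.55 (rho = 0.27), and for Ppy with Pyy it was 0.51 (rho = 0.20). Ductal genes had r = -0.56 (rho = -0.14), at 611 to 752 CPM in LPS and 538 to 656 CPM in untreated libraries, mostly from Krt7, which averaged 472 CPM in LPS and 423 CPM in untreated libraries. Endothelial genes summed to 9.17 to 13.2 CPM in LPS and 10.4 to 36.8 CPM in untreated libraries. All 6 tested had an unadjusted edgeR p under 0.05 (background 15.3%) and a log2 fold change below 0. Untreated 1 nevertheless lay within the range of the LPS libraries for all 6, with 0.078 CPM of Kdr and of Flt1. Calls between the groups fell on 3 of 10 beta cell, 2 of 8 ductal, 1 of 6 endothelial, 1 of 2 PP cell and 1 of 2 macrophage genes tested. No gene of the alpha, delta, mesenchymal and lymphocyte lists was called (background 3.77%). The marker genes called between the groups were Kdr (endothelial, log2 fold change -3.12), Ppy (-0.99) and the beta cell genes Slc2a2 (-0.86), Ucn3 (-0.64) and Slc30a8 (-0.59), all lower in LPS, and Spp1 (ductal, 0.97), Muc1 (ductal, 0.80) and Cd68 (macrophage, 0.68), all higher in LPS. Their edgeR adjusted p ran from 4.3e-05 for Slc2a2 to 0.0473 for Ppy and Kdr, and their r with the 9 enzyme genes from -0.33 for Cd68 to 0.53 for Ppy. Sums of endothelial (r = -0.01, led by Esam at 8.51 CPM in LPS and 10.3 CPM in untreated libraries), mesenchymal (-0.07, led by Col1a1 at 5.40 CPM in LPS and 11.2 CPM in untreated libraries) and beta cell genes (-0.35) had weaker relations. Over the 7 libraries with higher sums, r of Gcg with the 9 genes was -0.13 and that of Sst -0.26. Of 10 macrophage genes 2 passed the filter: Cd68 (26.8 CPM in LPS and 16.7 CPM in untreated libraries) and C1qa. C1qa went the other way from Cd68, with a log2 fold change of -0.35 (edgeR adjusted p = 0.213). The most counted of the remaining macrophage genes, Csf1r, had 30 counts summed over the LPS and 48 over the untreated libraries. The lymphocyte list was carried by Cd79a (1.93 CPM in LPS and 2.66 CPM in untreated libraries), while Ptprc, Cd3e, Cd3d and Ms4a1 had 0 counts in all 10 libraries. The part of other cell types in the spread of the enzyme transcripts was not tested.

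Sequence shared with other genes limits some single values. Of the 50-base words in the GENCODE M21 transcripts of Prss2, 7.83% also occur, in either orientation, in transcripts of other genes, most of them in the trypsinogen gene Try10. The shares were 15.6% for Cela2a, all with Ctrc and some also with Casp9, and 19.2% for Cela3b, all with Cela3a, and 0% for the other 6 members. Rows that name no gene held 15698377 reads without a unique alignment and 4229376 ambiguous ones, summed over the libraries. Read length and strandedness are not stated, so how many reads of the trypsinogen and elastase genes are among them is uncertain.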

How the data were processed

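The authors deposited whole-number counts for each gene in separate files of the 10 libraries. Per the submitters' processing notes, GRCm39 was the build, and the tools named are HTSeq, STAR, SAMtools, Trimmomatic, FastQC and DESeq2; neither versions nor the strand setting are given. Rows that name no gene (15.4% to 20.2% of the counts in a library) were left out. Symbols matched 52073 of 56748 identifiers.

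Genes were filtered with filterByExpr (minimum count 10, minimum total 15), scaled by TMM and tested with edgeR 4.0.16 (quasi-likelihood, no covariate, R 4.3.3), with Benjamini-Hochberg adjustment over 15942 genes. DESeq2 1.42.0 and limma 3.58.1 served as alternatives. CPM divides counts by the scaled library total. Log2 CPM used a prior count of 2. Correlations used 100000 permutations. Nothing says that libraries came from separate animals, so p-values measure the spread between these libraries. The genes and lists were chosen with earlier results of these data known. Named were the 9 genes, the 3 most abundant genes of each further acinar list, the 10 most alike genes and the top marker of each other cell type. A gene that this rule names is not reported here. Promoter sequences are from RefSeq (GRCm38.p6, all 9 members matched), and exon lengths and transcripts from GENCODE M21.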

Additional observations from a re-analysis of the deposited data

Results flagged for a closer look

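Single libraries stood far from the rest of their group in 7 of 114 group comparisons. The rule was a gap to the next library, divided by the range, above 0.71. Chance gives this in about 1 of 20 groups, and 7 of 114 lies near that share. The ratio of Ctrb1 to Pnliprp1 was 7.01 in LPS 10 against 3.16 to 4.18 in the other LPS libraries, and 10.1 in untreated 5 against 2.59 to 3.40 in the other untreated libraries. The ratio of Pnlip to Pnliprp1 was 1.07 in untreated 5 against 0.103 to 0.230 in the rest of its group. Cela2a made up 2.88% of the summed CPM of the 9 genes in LPS 10 and 4.97% to 5.43% in the other LPS libraries. Among other acinar genes, Cela1 stood at 40.0 CPM in LPS 9 against 18.0 to 23.8 CPM, Prss3 at 1.45 CPM in LPS 9 against 0.166 to 0.488 CPM, and Amy1 at 1.63 CPM in untreated 4 against 0.380 to 0.582 CPM. The gene ratios were chosen after the values were seen, so their passing the rule is not a test of them. The cause of the flagged values was not tested.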

How the results depend on the processing

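No paired analysis was possible because the groups share no replicate number in the labels. None of the 9 genes was called under any of the 17 alternatives tried, with adjusted p from 0.258 to 0.999, and 1 had an unadjusted p under 0.05 without LPS 9 and 1 without LPS 7, LPS 10 and untreated 5. Signs of their small log2 fold changes were not stable. Without LPS 7, LPS 10 and untreated 5, a setting chosen after seeing the data, all 9 were above 0, at 0.46 for Ctrb1, 0.32 for Prss2, 0.21 for Pnliprp1, 0.19 for Cpa1, 0.030 for Cpb1, 0.13 for Cel, 0.072 for Pnlip, 0.067 for Cela2a and 0.35 for Cela3b. Prss2 had -0.0060 with a filter of 1 CPM in 5 libraries, -0.29 in limma-voom and -0.24 with sample quality weights, and Ctrb1 -0.011 in limma-voom. With single libraries left out, values ran from -0.13 to 0.34 for Ctrb1, -0.32 to 0.20 for Pnliprp1, -0.30 to 0.27 for Prss2, -0.48 to 0.091 for Cpa1, -0.79 to 0.16 for Cel, -0.58 to 0.018 for Cela2a and -0.41 to 0.17 for Cela3b. They stayed below 0 for Cpb1 (-0.69 to -0.020) and Pnlip (-0.85 to -0.25). Cpb1 and Pnlip changed sign only in the setting without LPS 7, LPS 10 and untreated 5. Genes called over the whole table numbered 601, with 976 in DESeq2, 994 in limma-voom with sample quality weights, 327 without the 3 libraries and 401 to 624 with single libraries left out. Other acinar genes called numbered 0 to 1 with single libraries left out, the 1 being Cela1 without LPS 9. The median pairwise r was 0.67 without the 3 libraries. Other acinar genes among the 50 most alike numbered 15, but 1 without the 3 libraries and 7 to 18 with single libraries left out, the fewest without LPS 9 (7) and LPS 7 (9). The causes were not tested. The LPS minus untreated difference in summed CPM was 2.67, from -67.8 (without LPS 9) to 73.4 (without LPS 10) with single libraries left out and 115 without the 3. With no library left out, the sums of single libraries had an SD of 244 CPM in LPS and 119 CPM in untreated libraries. That SD does not measure moves of the difference, which were not tested. The difference in Ctrb1 share was 6.18 percentage points, 3.01 to 8.49 with single libraries left out (lowest without LPS 10) and 4.52 without the 3. Counts of 53 or more per gene and library mean that the spread between libraries, rather than depth, sets the width of the intervals.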
